A study of Mus musculus with 7 samples.

Results

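The genes Cwc22, 1500015A07Rik, AC165951.1 and Baiap2l1, which were chosen for counts that differed between injected and untreated mice, were described in hippocampal RNA-seq of the outbred CD1 stock. They were selected on their difference from the control libraries in both the DMSO- and the ONX-0914-treated group, and they make up 4 of the 55416 gene identifiers counted. All 3 groups were age-matched CD1 males, although the age itself is not given in the sources used here. Control mice were untreated and gave 3 libraries (replicates 1 to 3). DMSO-treated mice, which gave 2 libraries (replicates 2 and 3), received an equal volume of DMSO intraperitoneally on the schedule of the drug. ONX-0914 inhibits the immunoproteasome and was given intraperitoneally at 10 mg/kg, 2 times per week for 2 months, and this group gave 2 libraries (replicates 1 and 2). The 4 libraries of both injected groups therefore share the injections, which the control mice did not receive. The solvent of ONX-0914 is not stated in the sources used here. The sources do not say which mouse stands behind which library, so the spread between libraries of a group may be partly technical. CD1 mice also differ from each other by descent. The injections and differences that individual mice were born with cannot be told apart in these libraries, and DNA of the mice was not analysed here.

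Cwc22 encodes a spliceosome protein that recruits the helicase Eif4a3 to precursor mRNA, and so places the exon junction complex upstream of newly joined exons. In mice, the gene is known to lie within a segmental duplication whose copy number varies between strains. Baiap2l1, also called IRTKS, encodes an I-BAR domain protein that couples curved plasma membrane to the actin cytoskeleton and is known mainly from epithelia. 1500015A07Rik and AC165951.1 are annotated as antisense non-coding genes without a known role. How reads of opposite strands were separated in counting is not given in the sources used here.

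In the GENCODE M21 annotation, Cwc22 (ENSMUSG00000027014) is a protein-coding gene on the minus strand of chromosome 2, with 13 transcripts whose exons cover 6822 bases. Baiap2l1 (ENSMUSG00000038859) is a protein-coding gene on the minus strand of chromosome 5, with 2 transcripts and 3366 exonic bases. 1500015A07Rik (ENSMUSG00000098702) is an antisense gene with 3 transcripts and 2296 exonic bases, and it shares 149 of them with Afap1l1 on the opposite strand. AC165951.1 (ENSMUSG00000117786) lies on the minus strand of chromosome 17, has 1 transcript of 4014 bases, and overlaps Glp1r and Umodl1 of the opposite strand without sharing exonic bases. It shares 246 exonic bases with AC174471.1 on its own strand. Cwc22 shares 187 with Gm13727 on its own strand, and Baiap2l1 shares 49 with Bri3 and 122 with Dmrt1i, both on the opposite strand. Reads in such shared bases cannot be placed with certainty. The annotation is of an earlier build (GRCm38) than the counts (GRCm39), and therefore gene positions are not given.

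The RefSeq promoters of the 2 protein-coding genes, 250 bases before the annotated start in GRCm38.p6, are shown because transcripts of Cwc22 were more abundant in all 4 injected libraries and those of Baiap2l1 in 3 of them. Cwc22 lies at chr2:77946357-77946606 and Baiap2l1 at chr5:144358113-144358362, both read on the minus strand, 5′ to 3′. Capitals mark matches, on either strand, to 1 of 6 motifs looked for (TATAAA of the TATA box, the CCAAT box, the GC box GGGCGG, the E-box CACGTG, the cyclic AMP response element TGACGTCA, and GGAAGTG, a site of Ets factors). The RefSeq promoter table matched 2 of the 4 genes.
Cwc22 promoter: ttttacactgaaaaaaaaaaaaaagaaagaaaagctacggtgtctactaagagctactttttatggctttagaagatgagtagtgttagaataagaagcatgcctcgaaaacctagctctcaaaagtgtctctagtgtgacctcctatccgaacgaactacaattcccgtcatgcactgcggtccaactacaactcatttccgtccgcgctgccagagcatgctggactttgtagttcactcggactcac
Baiap2l1 promoter: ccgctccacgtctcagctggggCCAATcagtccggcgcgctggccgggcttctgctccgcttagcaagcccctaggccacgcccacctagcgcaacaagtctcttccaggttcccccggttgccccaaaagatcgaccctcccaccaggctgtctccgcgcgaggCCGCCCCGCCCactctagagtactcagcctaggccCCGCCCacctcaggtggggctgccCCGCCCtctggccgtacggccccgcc
The promoter of Cwc22 had a GC content of 42.8%, lower than most promoters of the table, since 17.9% of them were lower still. It held 10 CpG and none of the 6 motifs. The promoter of Baiap2l1 had a GC content of 70.4%, with 21 CpG, 1 CCAAT and 4 GGGCGG, of which 2 adjoin within the longest run of capitals. CCAAT occurred in 33.8% and GGGCGG in 32.7% of 32851 promoters of the same length. Hence, these promoters share none of the motifs searched, and a match or its absence is a description of the letters only.

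The total count on genes was between 2842675 and 3877006 in 6 libraries and 13782270 in ONX-0914 replicate 2. Markers of the hippocampus were present in all 7 libraries, and their summed level was 1150 to 1200 CPM (the usual scaling of counts by library size, here with TMM factors) in the control and DMSO libraries and 941 in ONX-0914 replicate 2. In ONX-0914 replicate 1, however, it was 291 CPM, with 10 of 10 markers below all controls. In ONX-0914 replicate 2, 6 of the 10 were below all controls and 3 above. In the DMSO libraries, 1 and 3 were below, and 3 and 4 above. In ONX-0914 replicate 1, 12 of 12 thalamus and midbrain markers and 10 of 10 striatum markers were above all controls. Their summed levels there were 1120 and 1420 CPM, against 83.2 to 117 and 207 to 272 in the other libraries. ONX-0914 replicate 1 thus goes against its tissue label, and the 4 genes are given for both ONX-0914 libraries separately. A Log2FC of the ONX-0914 group pools both libraries, which disagreed for many genes. ONX-0914 replicate 2 stood apart in mitochondrial counts, 3.71% of its total against 0.818% to 1.59% elsewhere. Of 12 choroid plexus markers, 7 were above all controls in ONX-0914 replicate 2 and 0 below. Their summed level was 210 CPM there and 49.3 to 200 in the controls. The ONX-0914 libraries differed in their counts by a chi-square of 76.9 per degree of freedom, against 2.5 to 3.2 for pairs within the other groups, so that no pair was a copy of the same library. In bulk tissue, fewer cells of a type and less RNA per cell cannot be told apart.

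Cwc22 was more abundant in each injected library than in any control library. The control libraries had 65, 103 and 88 counts, or 23.2, 28.1 and 24.2 CPM. The DMSO libraries had 526 and 601 counts, or 141 and 215 CPM. The ONX-0914 libraries had 1574 and 2578 counts, or 396 and 170 CPM. Thus, the lowest injected library lay far above the highest control library, with no overlap, while the injected groups overlapped each other. The means were 25.2 ± 2.58 CPM (SD, n = 3) in control, 178 ± 51.9 (n = 2) in DMSO and 283 ± 160 (n = 2) in ONX-0914. In edgeR's model, the Log2FC against control was 2.82 (SE 0.356) for DMSO and 3.49 (SE 0.359) for ONX-0914. No test is given for these differences because they chose the gene.

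The same was seen for 1500015A07Rik, at a lower level. The control libraries had 6, 12 and 8 counts, or 2.14, 3.27 and 2.2 CPM. The DMSO libraries had 149 and 113 counts, or 40 and 40.3 CPM, and the ONX-0914 libraries 121 and 258 counts, or 30.5 and 17 CPM. All injected libraries were above all controls, and both DMSO libraries were above both ONX-0914 libraries. The means were 2.54 ± 0.636 CPM (n = 3) in control, 40.2 ± 0.256 (n = 2) in DMSO and 23.8 ± 9.48 (n = 2) in ONX-0914. The Log2FC against control was 3.96 (SE 0.344) for DMSO and 3.17 (SE 0.345) for ONX-0914, again as a description.

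AC165951.1 moved the other way and was nearly absent from injected libraries. The control libraries had 63, 81 and 66 counts, or 22.5, 22.1 and 18.2 CPM, with a mean of 20.9 ± 2.37 (n = 3). Both DMSO libraries had 0 counts, and the ONX-0914 libraries had 0 and 2 counts, or 0 and 0.132 CPM. The 2 counts came from the library with the deepest sequencing. With a floor of 3 counts per library, AC165951.1 was at least 22.3-fold lower in DMSO than in control. For ONX-0914, 2 counts in the summed libraries against 210 in control gave a ratio 199-fold lower, with an exact 95% interval of 54.3 to 1650. This interval and the floor cover counting error only.

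Baiap2l1 was detected in 3 of the 4 injected libraries, and the remaining one was at the level of the controls. The control libraries had 0, 2 and 2 counts, which is below the floor of 3 counts in each. The DMSO libraries had 66 and 14 counts, or 17.7 and 5 CPM. The ONX-0914 libraries had 0 and 388 counts, or 0 and 25.6 CPM. The gene therefore differed from control in both DMSO libraries but in only 1 of 2 ONX-0914 libraries. The ONX-0914 library at 0 is the one with the lowest summed level of hippocampus markers. Relative to the 4 counts of the summed controls, the ratio was 44.7 (exact 95% interval 16.7 to 169) in DMSO replicate 2, 12.6 (3.96 to 52.7) in DMSO replicate 3 and 64.8 (25.1 to 239) in ONX-0914 replicate 2. These intervals cover counting error only, not the spread between libraries, and the difference from control chose the gene. The part of tissue composition in the 0 of ONX-0914 replicate 1 was not tested.

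**Figure D1:**
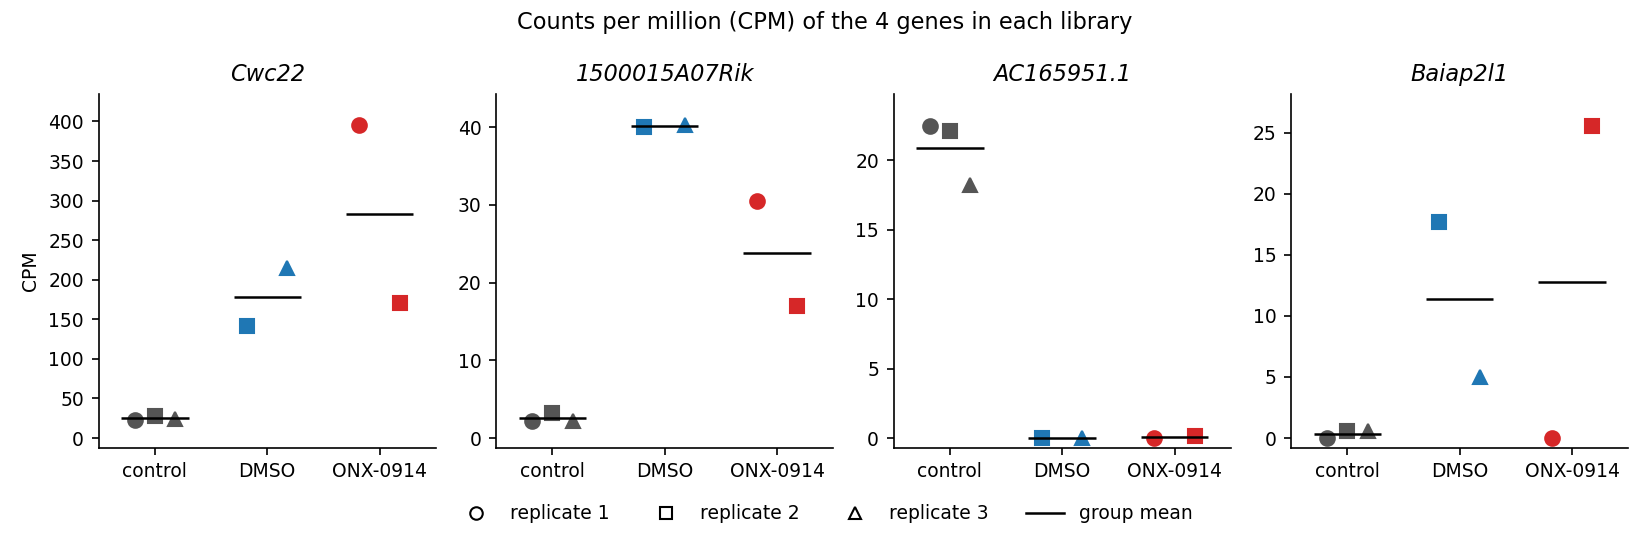
CPM of Cwc22, 1500015A07Rik, AC165951.1 and Baiap2l1 (vertical axes, each from 0) by group (horizontal axis), with 1 symbol per library, its shape giving the replicate number, and a line at the group mean. Cwc22 and 1500015A07Rik are higher in all 4 injected libraries, AC165951.1 is at or near 0 in them, and Baiap2l1 is at 0 in ONX-0914 replicate 1 but at 25.6 CPM in ONX-0914 replicate 2.

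Levels of different genes were compared per kb of exonic sequence. In control, the mean was 5.21 CPM per kb for AC165951.1, 3.69 for Cwc22, 1.11 for 1500015A07Rik and 0.109 for Baiap2l1. In DMSO, Cwc22 was at 26.1 CPM per kb and 1500015A07Rik at 17.5, and in ONX-0914 they were at 41.5 and 10.3. Hence, AC165951.1 had the highest mean of the 4 genes in control and the lowest in both injected groups. Per kb, the libraries of Cwc22 lay above those of 1500015A07Rik in every group.

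To place these differences among all genes, the gap between the nearest injected and control library was computed in log2 CPM with a prior count of 2. Of the 13152 genes that passed the filter on low counts, which included the 4 genes, 565 (4.3%) had all 4 injected libraries above all 3 controls. A further 623 (4.74%) had all 4 below. The largest gaps belonged to AC165951.1 (5.15), Cwc22 (2.31) and 1500015A07Rik (2.25). Next outside these came Psmc3ip, a cofactor of meiotic recombinases, with a gap of 2.01. Its control libraries had 10.3, 9.82 and 11.3 CPM, its DMSO libraries 2.15 and 1.43, and its ONX-0914 libraries 0.755 and 2.05. Only 8 genes had a gap of at least 1, of which 2 were higher and 6 were lower in injected libraries. Baiap2l1 is not among them since ONX-0914 replicate 1 lay within the controls. These ranks describe the values that chose the genes and support nothing beyond them.

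**Figure D2:**
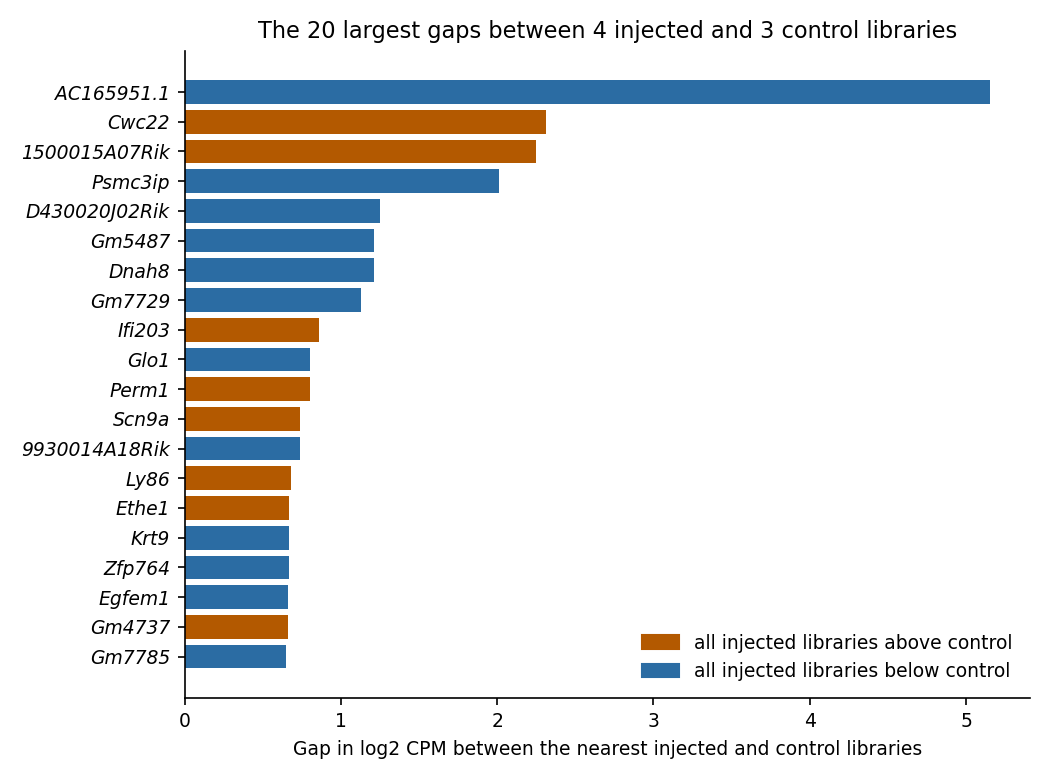
Gap in log2 CPM between the nearest injected and control libraries (horizontal axis) for the 20 genes with the largest gaps (vertical axis), coloured by direction. AC165951.1 leads with 5.15, followed by Cwc22, 1500015A07Rik and Psmc3ip, and the remaining gaps are 1.25 or less.

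Among all genes, 2 were DEG (Benjamini–Hochberg FDR under 0.05 by edgeR's quasi-likelihood test) between DMSO and control, which is 0.0152%, and 15 between ONX-0914 and control, which is 0.114%. These DEG include some of the 4 genes, which were chosen on the same comparisons. Their own calls are therefore no evidence and are not listed. At an unadjusted p under 0.05, 349 genes (2.65%) differed between DMSO and control and 2447 (18.6%) between ONX-0914 and control.

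The comparison of ONX-0914 with DMSO was not used directly to choose the genes. Both of its groups were used, however, since each had to differ from control, which favours similar values in them. In addition, ONX-0914 replicate 1 goes against its tissue label. The comparison therefore describes the difference between these libraries and cannot say what the drug added. Among all genes tested, 6 were DEG (0.0456%), and none of the 4 genes was among them. For Cwc22, the Log2FC was 0.67 (SE 0.375, 95% interval -0.19 to 1.53, edgeR adjusted p = 0.414). For 1500015A07Rik it was -0.79 (SE 0.308, 95% interval -1.49 to -0.08), with an unadjusted p of 0.0334 and an adjusted p of 0.301 in edgeR. For Baiap2l1 it was 0.28 (SE 1.03, 95% interval -2.02 to 2.58, edgeR adjusted p = 0.904). No fold is given for AC165951.1, because both groups were at or under the floor. These intervals span ratios of ONX-0914 to DMSO from 0.876 to 2.89 for Cwc22 and from 0.246 to 6 for Baiap2l1.

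Single libraries decided these values. Without ONX-0914 replicate 1, the Log2FC of Cwc22 was -0.06 (edgeR adjusted p = 0.796), and without ONX-0914 replicate 2 it was 1.16 (edgeR adjusted p = 0.0000156). For 1500015A07Rik it was -1.24 without ONX-0914 replicate 1 (edgeR adjusted p = 0.0000225). For Baiap2l1 it was 1.07 without ONX-0914 replicate 1 (edgeR adjusted p = 0.00639) and turned to -0.33 without DMSO replicate 3 (edgeR adjusted p = 0.944), and without ONX-0914 replicate 2 the group is a library at 0. In such a fit, the lone ONX-0914 library is assumed to vary like the libraries of the other groups. Therefore, the size of the difference between the injected groups was not fixed by these 4 libraries.

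**Figure D3:**
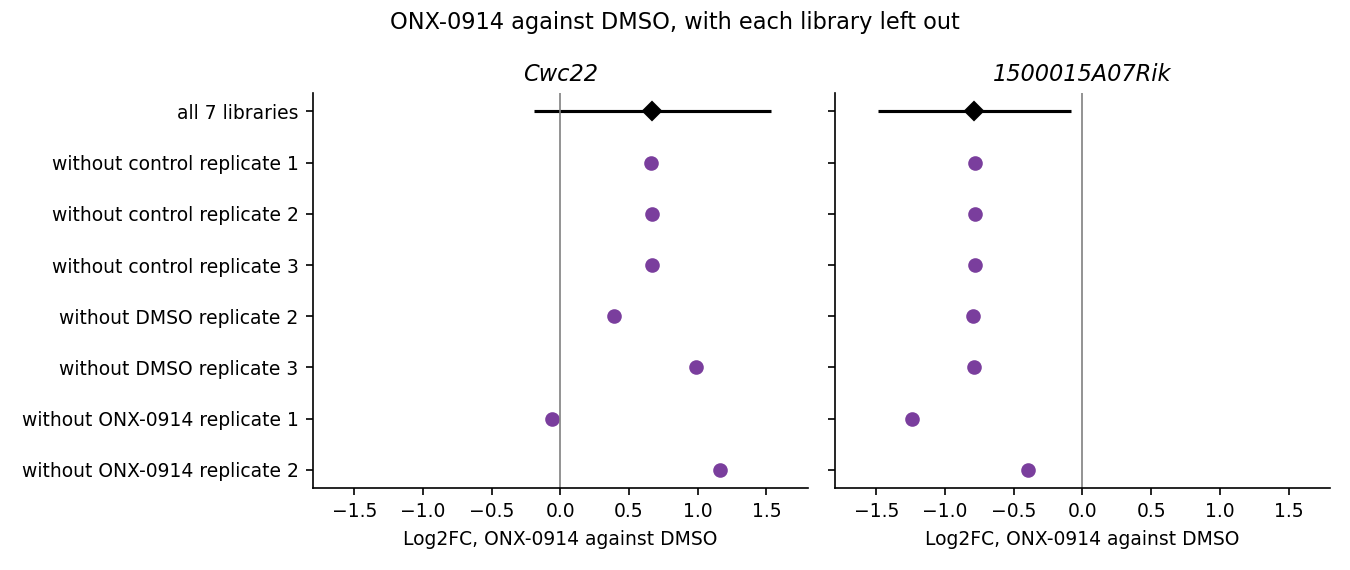
Log2FC of Cwc22 and 1500015A07Rik between ONX-0914 and DMSO (horizontal axis), from all 7 libraries (diamond, line for the 95% interval) and with each library left out (points). Cwc22 moves from -0.06 without ONX-0914 replicate 1 to 1.16 without ONX-0914 replicate 2, while 1500015A07Rik stays below 0 in each fit shown.

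The injected libraries of a group also differed from each other. The intervals here cover counting error only, which separate libraries often exceed. For Cwc22, ONX-0914 replicate 1 was 2.33-fold above replicate 2 (exact 95% interval 2.18 to 2.48) and DMSO replicate 3 was 1.52-fold above replicate 2 (1.35 to 1.71). The control libraries of Cwc22 lay within 1.21-fold. Larger ranges than that of Cwc22 were found in 17.2% of the genes tested for ONX-0914 and 13.6% for DMSO. For 1500015A07Rik, ONX-0914 replicate 1 was 1.79-fold above replicate 2 (1.43 to 2.23), whereas the ratio of the DMSO libraries was 1.01 (0.783 to 1.30). For Baiap2l1, DMSO replicate 2 was 3.54-fold above replicate 3 (1.97 to 6.83). Its range between the ONX-0914 libraries, 6.05 in log2 CPM, was exceeded by 1 other gene of those tested (0.0076%). Ranges of 8-fold or more were found in 151 genes between the ONX-0914 libraries, in 12 between the DMSO libraries and in 15 among the controls. Hence, the order of the injected libraries was not shared: Cwc22 was highest in ONX-0914 replicate 1, 1500015A07Rik in the DMSO libraries and Baiap2l1 in ONX-0914 replicate 2.

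The genes most like each of the 4 over the 7 libraries, by Pearson's r of log2 CPM, are given as a description, since all share the same libraries. For Cwc22 they were Anapc11 (0.987), Acad12 (0.979) and Scn9a (0.956), and for 1500015A07Rik Plpp2 (0.988), Emilin2 (0.978) and Nfil3 (0.969). For Baiap2l1 they were Ing3 (0.993), Gm11942 (0.974) and Rpp25l (0.974). Most of these moved far less than the gene they resemble, as Anapc11, a subunit of the anaphase-promoting complex, was at 40.9 to 41.4 CPM in control and at 43.5 to 45.8 in injected libraries. For AC165951.1 the most alike genes were Macrod2 (0.973), Psmc3ip (0.966) and Dnah8 (0.966), and Dnah8 is also its nearest tested neighbour on 1 side.

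The tested genes within 1 Mb of AC165951.1, 17 in number, were not used by the rule. In this neighbourhood, 5 of the 17 genes had all injected libraries below all controls, beside 4.74% of all genes tested, and none had them above. Neighbouring genes are not independent of each other. Glo1, the glyoxalase that detoxifies methylglyoxal, had 186, 179 and 178 CPM in control, 99.5 and 102 in DMSO and 90.4 and 53.9 in ONX-0914. No injected library came near the controls. Its Log2FC was -0.84 (SE 0.228) for DMSO and -1.34 (SE 0.232) for ONX-0914, with edgeR adjusted p-values of 1 and 0.0728. Dnah8, an axonemal dynein heavy chain, had 4.63, 7.63 and 5.51 CPM in control, 1.61 and 1.78 in DMSO and 1.26 and 1.39 in ONX-0914. Its Log2FC was -1.81 for DMSO and -2.13 for ONX-0914 (edgeR adjusted p = 1 and 0.0772). Glp1r, the receptor of glucagon-like peptide, which lies opposite AC165951.1, had 2.85, 7.09 and 5.78 CPM in control, 0.805 and 0.357 in DMSO and 2.52 and 0.727 in ONX-0914. Both DMSO values are at or under the floor of 3 counts, which is 0.805 CPM in DMSO replicate 2 and 1.07 in DMSO replicate 3. Glp1r and AC165951.1 share no exonic bases.

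On the other side, Rsph1, a radial spoke protein of cilia, had 37.1, 23.4 and 30.3 CPM in control, 18.8 and 21.4 in DMSO and 19.6 and 3.83 in ONX-0914, with edgeR adjusted p-values of 1 and 0.234. The antisense gene AC165962.1 had 12.4 to 17.5 CPM in control, 7.24 and 9.64 in DMSO and 11.1 and 3.44 in ONX-0914. Abcg1, a cholesterol transporter, and Btbd9, a BTB domain protein, had Log2FC of -0.07 and -0.02 for DMSO and -0.22 and -0.50 for ONX-0914, with overlapping libraries. The lower levels were therefore not shared by all genes around AC165951.1. Mdga1, a synaptic adhesion protein, had 43.0 and 33.2 CPM in ONX-0914 and 90.7 to 100 in the control and DMSO libraries (Log2FC -1.35 for ONX-0914, edgeR adjusted p = 0.0509).

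None of the 17 genes was a DEG in the fit of all 7 libraries, and this depended on the libraries and the settings of the fit. With only the control and DMSO libraries in the fit, Glo1 (Log2FC -0.84, edgeR adjusted p = 0.000144) and Glp1r (-3.07, edgeR adjusted p = 0.0266) were called lower in DMSO. This fit called 141 genes in all, and the DMSO values of Glp1r are at or under the floor. Without ONX-0914 replicate 1, the Log2FC for DMSO was -0.84 for Glo1 and -3.1 for Glp1r. Without ONX-0914 replicate 2, it was -0.84 and -3.07. These fits use the same control and DMSO libraries, so they are no added support. For ONX-0914 against control, Glo1 was called by DESeq2 (adjusted p = 0.000189), as were Mdga1 and Dnah8, among 388 genes in all. In edgeR with all 7 libraries, Mdga1 was called with RLE size factors (edgeR adjusted p = 0.0465) and in the earlier form of the fit (edgeR adjusted p = 0.0497). These fits called 20 and 18 genes in all. Without the filter on low counts, edgeR called Mdga1, Glo1, Dnah8, Glp1r and Rsph1, among 578 genes in all.

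**Figure D4:**
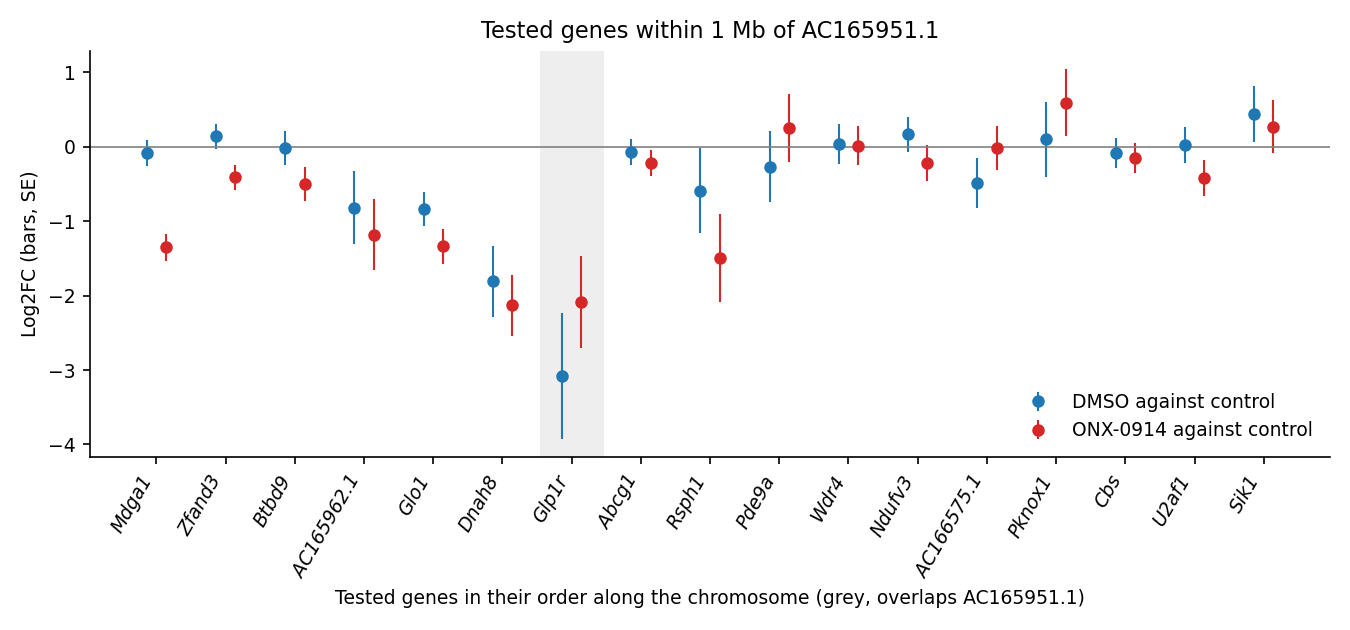
Log2FC against control (vertical axis, bars for the SE) of the 17 tested genes within 1 Mb of AC165951.1 in their order along the chromosome (horizontal axis), for DMSO and ONX-0914. Glo1, Dnah8 and Glp1r, which lie near or overlap AC165951.1, are lower in both comparisons, and the genes from Pde9a onward lie within 0.59 of 0.

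Fewer neighbours of the other 3 genes were set apart, and this difference was not tested. Around Cwc22, 4 genes were tested and none had injected and control libraries apart. Their Log2FC was -0.46 to 0.33 for DMSO and 0.01 to 1.02 for ONX-0914. Zfp385b, a zinc finger protein next to Cwc22, had Log2FC of 0.33 and 1.02, with 14.3 and 38.6 CPM in the ONX-0914 libraries against 10.7 to 15.5 in control. Ube2e3, a ubiquitin-conjugating enzyme on the other side, had 0.21 and 0.38, with 30.0 and 67.9 CPM in ONX-0914 against 33.9 to 42.5 in control. For both genes, ONX-0914 replicate 2 alone lay above the controls in that group. Sestd1 and Ccdc141, the next genes, had -0.46 and 0.01, and -0.04 and 0.76, respectively. Thus, none of these came near the differences of Cwc22 itself.

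Around 1500015A07Rik, 22 genes were tested, with a median Log2FC of -0.06 in both comparisons with control, and 2 had all injected libraries below and 1 above control, beside 4.74% and 4.3% of all genes tested. Afap1l1, an actin filament-associated protein on the opposite strand, had -0.54 for DMSO and 0.16 for ONX-0914. Sh3tc2, a protein known from Schwann cell endosomes, was the neighbour above control, at 2.68 to 4.03 CPM against 0.818 to 1.65 (edgeR adjusted p = 1 and 0.158). Ablim3, Htr4, Grpel2, Pcyox1l and Csnk1a1, the other nearest genes, had Log2FC between -0.71 and 0.51. Around Baiap2l1, 33 genes were tested, with medians of 0.04 and 0.16, and 3 had all injected libraries below and 1 above control, beside the same shares of all genes. Tecpr1, an autophagosome protein next to it, was at 133 to 141 CPM in control, 104 and 110 in DMSO and 84.8 and 129 in ONX-0914, all below control. Bri3, which shares bases with Baiap2l1 on the opposite strand, had -0.21 and 1.04, with 7.05 and 28.1 CPM in the ONX-0914 libraries against 7.16 to 10.7 in control. Nptx2, Tmem130, Trrap, Lmtk2 and Ccz1 had Log2FC between -0.22 and 0.64. Over the neighbourhoods of the 4 genes together, 76 genes were tested. By edgeR, 0 were DEG in either comparison with control, beside 0.0152% and 0.114% of all genes. At an unadjusted p under 0.05, 0 of these 76 were higher and 4 lower for DMSO, beside 195 higher and 154 lower of all 13152 genes tested. For ONX-0914, 10 were higher and 12 lower, beside 1389 higher and 1058 lower of all genes tested. DESeq2 called 4 of the 76 for ONX-0914, and 388 among all genes.

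None of the partners of Cwc22 was a DEG, which at the share of DEG over all genes says little about them. Of the 32 genes of the exon junction complex and spliceosome list, all passed the filter. By edgeR, 0 were DEG in any comparison, beside 0.0152% to 0.114% of all genes. All injected libraries lay below all controls for 5 of the 32, beside 4.74% of all genes, and above for 0, beside 4.3%. For DMSO, 0 had an unadjusted p under 0.05, beside 2.65% of all genes. The median Log2FC for DMSO was 0.04, beside 0 over all genes tested. For ONX-0914, 28 of the 32 had a Log2FC below 0, beside 6077 of the 13152 genes tested, with a median of -0.35 beside 0.05 over all genes. An unadjusted p under 0.05 was obtained for 4 of the 32, beside 18.6% of all genes. Eif4a3, the helicase that Cwc22 recruits, had 103, 94.6 and 107 CPM in control, 106 and 111 in DMSO and 91.1 and 49.1 in ONX-0914. Its Log2FC was 0.09 for DMSO and -0.55 for ONX-0914 (edgeR adjusted p = 1 and 0.291). Nom1, a nucleolar relative of Cwc22 with the same MIF4G fold, had -0.03 and -0.42. In DMSO, the ends of the list were Rbm8a (0.41), which pairs with Magoh in the complex, and Eftud2 (-0.33), a spliceosomal GTPase. In ONX-0914 they were Aqr (0.25), an intron-binding helicase, and Upf3a (-0.98), a nonsense-mediated decay factor.

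The low values in ONX-0914 came mostly from replicate 2. For Upf3a, the control libraries had 177 to 190 CPM, the DMSO libraries 140 and 174, and the ONX-0914 libraries 152 and 37.3. In fits with a lone ONX-0914 library, genes of this list were called against control, as were many of all genes. Such calls are no result about the list. The part of the mitochondrial share and depth of ONX-0914 replicate 2 in its low values was not tested.

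Nor was any of the relatives and partners of Baiap2l1 a DEG. Of 16 listed genes, 14 were tested, and 0 were DEG in any comparison by edgeR, beside 0.0152% to 0.114% of all genes. The median Log2FC was 0.03 for DMSO, with 0 genes at an unadjusted p under 0.05, and -0.09 for ONX-0914, with 2, beside 2.65% and 18.6% of all genes. Baiap2, the closest relative and an abundant protein of synapses, had 128 to 136 CPM in control, 132 and 136 in DMSO and 68.5 and 274 in ONX-0914. Hence, Baiap2 too was lower in ONX-0914 replicate 1 than in replicate 2, but its DMSO and control libraries overlapped. The ends of the list were Arpc2 (0.31), a subunit of the actin-nucleating Arp complex, and Wasf1 (-0.42), a WAVE protein, in DMSO. In ONX-0914 they were Mtss1 (0.46), another I-BAR protein, and Diaph1 (-0.63), a formin. Some of the 14 genes were called against control when either ONX-0914 library was left out, as were many of all genes. Such a fit rests on a lone library of a pair that differed widely.

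**Figure D5:**
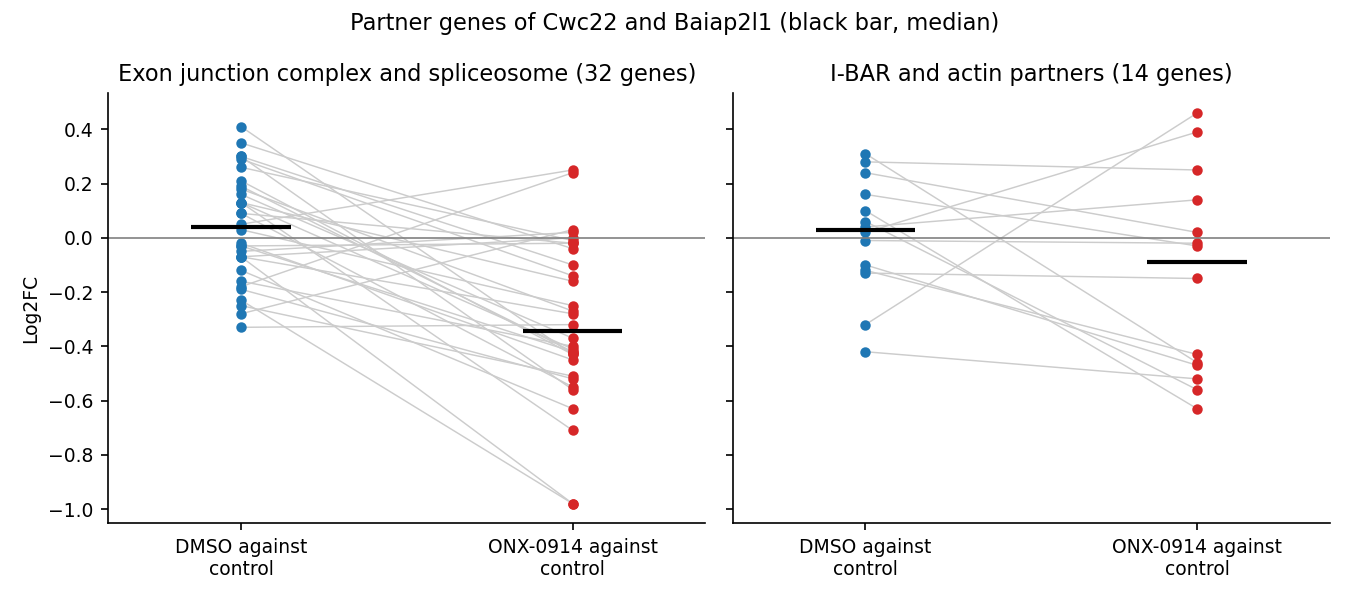
Log2FC against control (vertical axis) of 32 exon junction complex and spliceosome genes and 14 I-BAR and actin partner genes for DMSO and ONX-0914 (horizontal axis), with 1 point per gene, lines joining the same gene and a black bar at the median. The spliceosome list has its median at 0.04 for DMSO and -0.35 for ONX-0914, and all points lie between -0.98 and 0.46.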

How the data were processed

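Hippocampal total RNA (RIN not less than 8) was sequenced by the authors from directional libraries as 100 bp single-end reads. The submitters' processing notes name Trimmomatic 0.39, STAR 2.7.3a, featureCounts 2.00 and GRCm39. The strand setting and annotation release are not given in the sources used here. The authors deposited raw counts per gene, 1 file per library, without normalization. Of the reads, 89.6% to 91.4% were assigned to genes, and the unassigned lines stayed out of library sizes and tests. Symbols, gene types, exon lengths and gene order came from GENCODE M21 (GRCm38), which matched 52083 of 55416 identifiers and 99.8% of the counts. Promoters came from RefSeq.

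All 7 libraries entered 1 edgeR fit (version 4.0.16, R 4.3.3; filterByExpr, TMM, glmQLFit and glmQLFTest with 1 mean per group, Benjamini–Hochberg threshold of 0.05). The biological coefficient of variation common to all genes was 0.249. CPM used TMM-scaled library sizes, and log2 CPM used a prior count of 2. Count ratios carry exact binomial intervals (95%). The steps were tested on simulated data. Alternatives were DESeq2 1.42.0, RLE size factors, total counts, no filter, the compared groups alone, a replicate block and each library left out. The earlier form of the quasi-likelihood fit was added after seeing the data.

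The 4 genes and the lists were chosen with earlier results of these data known. Named in addition were the 3 genes most correlated with each, the 3 nearest tested protein-coding genes on each side, and overlapping tested genes. From each list, DEG, the highest and lowest Log2FC against control, Eif4a3, Nom1, Baiap2 and Glo1 were named. Other genes, such as Mdga1, AC165962.1 and those of the largest gaps, were named after their values were seen.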

Additional observations from a re-analysis of the deposited data

How the results depend on the processing

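Depth limits AC165951.1 and Baiap2l1 most, since a floor of 3 counts per library lies close to all their low values. The treated groups hold 2 libraries each, and whether the replicate numbers pair the samples is not settled. The r of same-numbered pairs, from deviations within groups, was -0.096 to 0.064 over 5 pairs. In a group of 2 libraries these deviations mirror each other, so the pairs are not independent and cannot exclude a pairing.

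The count of DEG for DMSO against control, 2 with all libraries, was 11 without a filter, 9 by DESeq2, 0 with the replicate block and 141 with only the groups compared, and 0 to 146 with 1 library left out. For ONX-0914 against control, 15 became 578 without a filter, 388 by DESeq2, 1 with the replicate block, 3 with only the groups compared and 0 to 7023 with 1 library left out. For ONX-0914 against DMSO, 6 became 11 with RLE size factors, 3 with total counts, 297 without a filter, 238 by DESeq2, 0 with the replicate block, 0 with only the groups compared and 0 to 6313 with 1 library left out. The cause was not tested.

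Of the neighbouring genes, 0 were DEG for DMSO, but 2 with only the groups compared, and 0 to 2 with 1 library left out. For ONX-0914, 0 became 2 with RLE size factors, 1 with total counts, 6 without a filter, 4 by DESeq2, 1 with the earlier form of the fit and 0 to 46 with 1 library left out. Of the spliceosome and exon junction complex genes, 0 to 20 were DEG for ONX-0914 with 1 library left out, and of the I-BAR and actin partners 0 to 8. The counts of 46 and 20 came from the fit without ONX-0914 replicate 1. That fit also gave the highest count over all genes for ONX-0914 against control, as printed above. The count of 8 was reached in both fits with a lone ONX-0914 library. These highest counts are therefore no result about the neighbours or the lists.

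For ONX-0914 against DMSO, the Log2FC of Cwc22 ranged from -0.06 to 1.16 with 1 library left out, that of 1500015A07Rik from -1.24 to -0.40 and that of Baiap2l1 from -8.38 to 1.48. The lowest value of Baiap2l1 is set against a library at 0 (ONX-0914 replicate 1 alone) and depends on the prior count. Without DMSO replicate 3 it was -0.33 (edgeR adjusted p = 0.944), and for ONX-0914 against control it ranged from -3.57 without ONX-0914 replicate 2 to 5.93 without replicate 1. The log2 bound of AC165951.1 for DMSO was -4.48 with all libraries and -4.70 to -4.29 with 1 left out. The directions of Cwc22 and 1500015A07Rik against control held in each fit run. Their injected and control libraries do not overlap, so leaving 1 out could not reverse them. This is therefore no support for differences that chose the genes. The values of AC165951.1 are ratios of counts and were not recomputed where only the model changed.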

Other observations

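Of a list of 7 genes known for copy number or structural variants between mouse strains (Glo1, Btbd9, Alad, Hdhd3, Nnt, Ide and Fgfbp3), 6 were tested. In edgeR's fit of all 7 libraries, 0 were DEG in any comparison, beside 0.0152% to 0.114% of all genes. An unadjusted p under 0.05 was obtained for 1 in DMSO and 2 in ONX-0914, beside 2.65% and 18.6% of all genes. Glo1 was the 1 gene of them with all injected libraries below all controls, beside 4.74% of all genes. Other fits called Glo1, as given above for the neighbours of AC165951.1. Ide, an insulin-degrading protease, had 16.8 to 19.6 CPM in control, 16.9 and 17.8 in DMSO and 16.1 and 52.6 in ONX-0914, so that a single library stood apart. Alad, an enzyme of heme synthesis, had 3.30 to 7.09 CPM in control, 11.8 and 6.07 in DMSO and 3.52 and 16.3 in ONX-0914.

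Among the genes with the next gaps, chosen after their values were seen, Ifi203, an interferon-induced gene of a family of near-identical members, had 0.551 to 1.07 CPM in control, 6.44 and 3.93 in DMSO and 2.27 and 5.88 in ONX-0914. Gm7729 had 9.82 to 11 CPM in control, 0.537 and 3.93 in DMSO and 4.28 and 0.991 in ONX-0914. Rps2-ps10, a transcribed pseudogene within 1 Mb of 1500015A07Rik, had 0 to 0.357 CPM in control, 1.07 and 0 in DMSO and 16.1 and 6.81 in ONX-0914. Its reads may be shared with near-identical copies. It was named after its values were seen, and it passed the filter on low counts through the ONX-0914 libraries alone. Calls of it for ONX-0914 against control are therefore no independent test and are not given.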
